A study of Mus musculus with 14 samples.

Results

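The 10 genes described here belong to tumor necrosis factor (TNF) signaling and to the NF-kB feedback it sets in motion, and were followed in mouse kidney before and after acute kidney injury. They were listed by symbol as members of the pathway, with earlier results of these data known. These genes are Tnf, the receptors Tnfrsf1a, Tnfrsf1b and Tnfrsf12a, the NF-kB subunits Nfkb1 and Relb, the inhibitors Nfkbia and Tnfaip3, the nuclear IkB gene Nfkbiz, and Birc3. They are 10 of 24411 genes counted and 10 of 14300 that had enough reads to be tested. The study profiled whole kidney RNA from male C57/B6 mice aged 8 weeks by bulk RNA sequencing. Kidneys were taken at day 0 (control, n = 4), day 1 (n = 5) or day 3 (n = 5) after renal ischemia/reperfusion injury (IRI), in which blood flow is stopped and then restored. All mice had the same strain, sex and age, no other treatment or genotype was given in the labels, and no separate sham group was among the 14 libraries. The labels do not say that the libraries of a day came from separate animals, so each p-value measures the spread between these libraries, which may in part be technical.

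TNF is a cytokine made mainly by myeloid cells and, after injury, by tubular epithelium as well. It binds TNF receptor 1 (Tnfrsf1a), which most cells carry, and TNF receptor 2 (Tnfrsf1b), which is best known on leukocytes, endothelium and injured tubules, and both receptors lead to the nuclear entry of NF-kB dimers. NF-kB then turns on the genes of its own inhibitors, among them IkBα (Nfkbia) and A20 (Tnfaip3), so that the signal is self-limiting, and induction of these genes is a common readout of NF-kB activity in the kidney.

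Between 12485579 and 20476979 reads per library fell on genes. Expression is given as read counts relative to library size (CPM), scaled between libraries by the trimmed mean of M values (TMM). The libraries carry numbers of either 1 or 3 digits. All 4 day 0 libraries, day 1 replicates 3, 4 and 5 and day 3 replicates 4 and 5 have 1 digit, whereas day 1 replicates 1 and 2 and day 3 replicates 1, 2 and 3 have 3 digits. The sources do not say what the format marks. The format was therefore compared within days 1 and 3 only. Since day 0 has 1-digit libraries alone, format and injury cannot be told apart where 3-digit libraries are set against day 0. Kidney markers were high in every library but moved with the day. The sum of 7 proximal tubule markers was 11010 to 12660 CPM at day 0, 2962 to 12110 CPM at day 1 (3 of 7 lower) and 2028 to 11160 CPM at day 3 (2 of 7 lower). Markers of the other nephron segments summed to 6866 to 9514, 3794 to 6186 (2 of 6 lower) and 2317 to 3737 CPM (3 of 6 lower). Fibroblast and pericyte markers summed to 93.1 to 98.6, 122 to 341 (2 of 5 higher) and 377 to 815 CPM (4 of 5 higher). Injury was visible in 5 tubular injury markers, whose sum was 100 to 135 CPM at day 0, 899 to 5579 CPM at day 1 and 970 to 4560 CPM at day 3. Of these markers 4 were called higher at each day. Krt20 and Sox9 passed the filter on low counts through the injured libraries, and of the 3 that pass at day 0, 2 were higher at each day. Vcam1 is also among the classical NF-kB targets counted below. The sum of 5 smooth muscle markers was 106 to 120 CPM at day 0, 204.5 to 251 CPM at day 1 and 107 to 194 CPM at day 3, with 1 of 5 called higher at each day. Of 10 immediate early genes, 10 were higher at day 1 and 6 at day 3, against 23.3% and 19.5% of all genes tested. Fosb passed the filter through the injured libraries, and of the 9 that pass at day 0, 9 and 6 were higher. The part of these changes in the differences between days given below was not tested. In bulk tissue, fewer cells of a type and less RNA per cell cannot be told apart.

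The stretches of promoter below are shown because they belong to the classical NF-kB feedback inhibitors and hold matches to the NF-kB consensus. Of the 10 genes, 7 have a promoter window in RefSeq (GRCm38.p6), which runs from 250 bases before to 50 bases after the start of transcription. The 10-letter NF-kB consensus was searched on both strands, and 2 of the 7 genes, which have 8 windows in all, held a match. Over 32851 windows of the same length 8.46% held one, which is a share of windows and not of genes. Both sequences are printed 5′ to 3′ on the gene's own strand, the minus strand, with the matched letters in capitals. The Tnfaip3 stretch is chr10:19015411-19015540, upstream of the start of the RefSeq transcript and inside an intron of another annotated transcript, and the Nfkbia stretch is chr12:55492648-55492747, which ends at the base before its start.
Tnfaip3: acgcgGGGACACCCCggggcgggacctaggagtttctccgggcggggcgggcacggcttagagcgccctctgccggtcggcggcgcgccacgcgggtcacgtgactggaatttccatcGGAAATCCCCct
Nfkbia: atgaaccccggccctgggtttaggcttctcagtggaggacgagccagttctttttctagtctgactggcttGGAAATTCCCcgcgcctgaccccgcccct
The Tnfaip3 matches lie 125 to 116 and 12 to 3 bases before the start, the first of them a match on both strands, and the Nfkbia match lies 29 to 20 bases before it. A match describes letters only and is not evidence of binding in these kidneys.

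At day 1, 9 of the 10 genes were higher than at day 0, by 1.58-fold (Nfkb1) to 24.9-fold (Tnfrsf12a), and no gene of the group was lower. Over all genes tested, 42.1% were called at day 1 and 23.3% were called higher. Tnfrsf12a rose most, followed by Relb, Nfkbiz, Birc3, Tnfrsf1b and Tnfaip3. The gene without a call was Tnf itself, which had 4 to 16 reads per library. Tnf was sparse enough at day 0 that it passed the filter on low counts through the injured libraries, so counts are also given without it: 9 of the other 9 genes rose at day 1, and in all 9 the lowest day 1 library lay above the highest day 0 library, a separation seen in 21.5% of all genes tested. The median log2 fold change was 2.35 over the 9 genes and 0.01 over all genes tested.

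**Figure D1:**
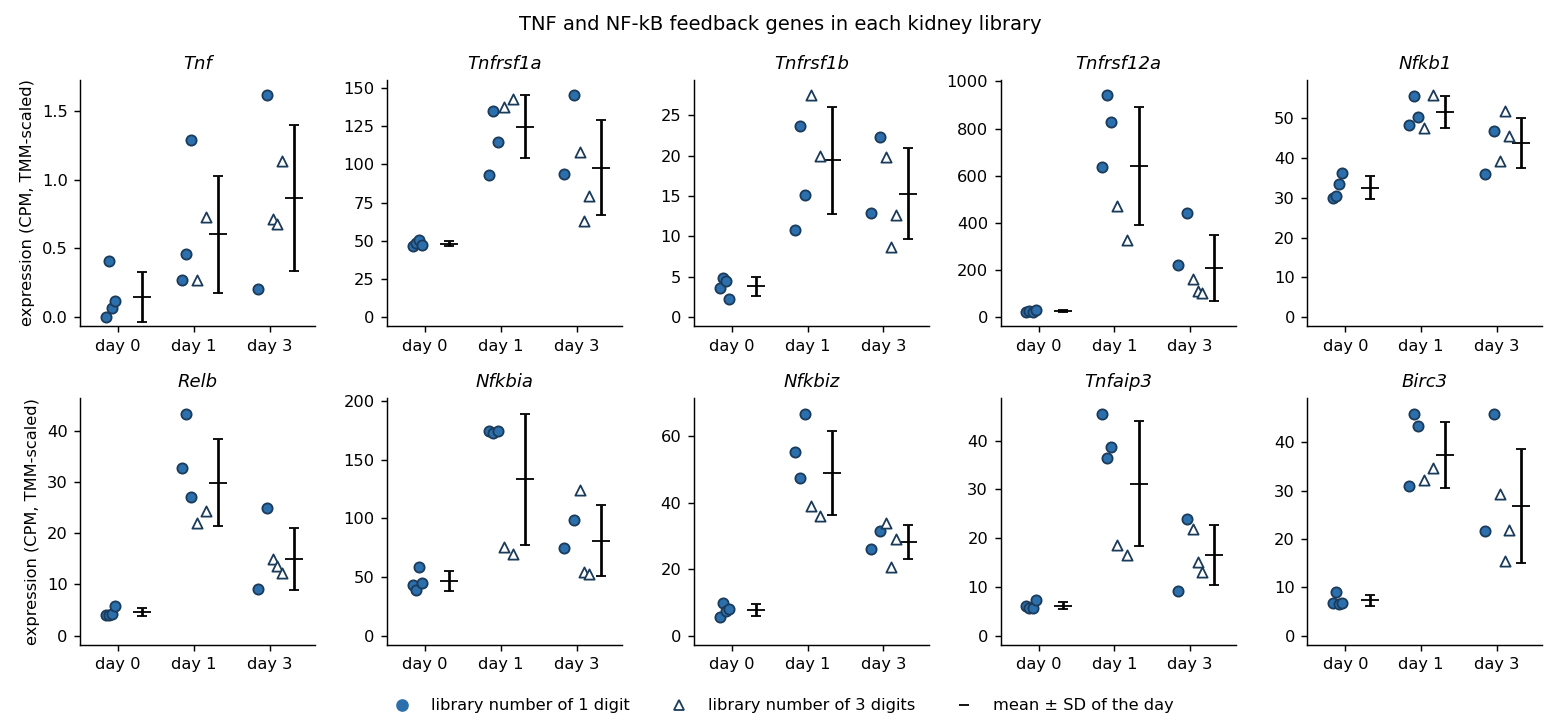
Expression of each of the 10 genes in CPM (TMM-scaled, linear axis, a separate scale for each gene) in every library at day 0 (n = 4), day 1 (n = 5) and day 3 (n = 5). Filled circles are libraries with a number of 1 digit, open triangles those with 3 digits, and the bars give the mean ± SD of the day; Tnfrsf12a ran from 22.4 to 30.6 CPM at day 0 and from 326 to 942 CPM at day 1, and Nfkbia at day 1 split by number format.

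The ligand gene Tnf (chromosome 17, 35199381 to 35202007, minus strand, GRCm38) had the fewest reads of the group. The day 0 libraries held 0, 7, 1 and 2 reads, where the 0 allows up to 3 reads or 0.173 CPM. The day 1 libraries held 5, 16, 4, 8 and 16 reads and those of day 3 held 14, 12, 23, 3 and 22 reads. In CPM this was 0.149 ± 0.182 at day 0 (SD, n = 4), 0.603 ± 0.426 at day 1 (n = 5) and 0.869 ± 0.533 at day 3 (n = 5), and the groups overlapped at both days. The log2 difference from day 0 was 1.94 ± 0.80 at day 1 (SE, adjusted p = 0.065) and 2.48 ± 0.79 at day 3 (adjusted p = 0.027). The day 1 value ran from 1.51 without day 1 replicate 5 to 3.15 without day 0 replicate 2, where it was called (adjusted p = 0.0207), as it was by DESeq2 (2.01, adjusted p = 0.04). The day 3 value ran from 2.07 without day 0 replicate 1 to 3.68 without day 0 replicate 2. The day 3 call rests on few reads: the adjusted p was between 0.0565 and 0.08 without day 0 replicate 1, 3 or 4 or day 3 replicate 5, or with 1-digit libraries alone in the fit. Neutrophil markers were at or below 2.07 CPM in sum at day 0, and none of the 6 passes the filter on low counts in those libraries alone. They entered the test through the injured libraries, where 6 of 6 were called higher at both days. Of 10 macrophage and monocyte markers 3 were higher and 1 was lower at day 1, and 4 were higher and 1 was lower at day 3, against the 23.3% and 19.5% of all genes that were higher. Itgam passed the filter through the injured libraries, and of the 9 that pass at day 0, 2 and 3 were higher and 1 was lower at each day. The summed macrophage and monocyte markers were 137 to 216 CPM at day 0, 136 to 347 CPM at day 1 and 198 to 502 CPM at day 3, with overlap between the days, and the summed neutrophil markers 1.33 to 2.07, 49.3 to 206 and 19.6 to 419 CPM. The part of these cells in the Tnf values was not tested. Summed T, B and NK lymphocyte markers stayed at or below 3.87 CPM in every library.

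Tnfrsf1a, TNF receptor 1 with its death domain (chromosome 6, 125349362 to 125362484, plus strand), was the steadiest of the receptors before injury. It read 46.8, 48.6, 50.4 and 47.2 CPM at day 0. It then read 138, 143, 93.0, 135 and 115 CPM at day 1 and 108, 63.1, 79.5, 93.7 and 145 CPM at day 3. Every injured library lay above every day 0 library. The log2 rise was 1.37 ± 0.21 at day 1 (2.59-fold, adjusted p = 2.71e-04) and 1.02 ± 0.21 at day 3 (adjusted p = 0.00235).

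Tnfrsf1b, TNF receptor 2 (chromosome 4, 145213463 to 145246870, minus strand), started from 3.62, 4.88, 4.49 and 2.24 CPM. Its levels were 27.5, 19.9, 10.8, 23.7 and 15.1 CPM at day 1 and 19.9, 8.73, 12.7, 12.8 and 22.3 CPM at day 3, again with no overlap with day 0. The log2 rise was 2.35 ± 0.35 at day 1 (5.095-fold, adjusted p = 2.22e-04) and 2.00 ± 0.34 at day 3 (adjusted p = 8.63e-04). Tnfrsf1b and Tnfrsf1a did not differ between day 3 and day 1 beyond the spread of the libraries, with log2 differences of -0.35 ± 0.30 and -0.35 ± 0.19. Macrophages and neutrophils carry Tnfrsf1b, and the part of the myeloid marker values given above in its rise was not tested.

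Tnfrsf12a, or Fn14, the receptor of the TNF-like cytokine TWEAK (Tnfsf12), lies on chromosome 17, 23675445 to 23677468, minus strand. Its levels were 22.7, 27.4, 22.4 and 30.6 CPM at day 0. They were 472, 326, 637, 942 and 826 CPM at day 1 and 161, 110, 104, 220 and 443 CPM at day 3. The lowest day 1 library was more than 10 times the highest day 0 library, and day 3 lay between them with some overlap with day 1. The log2 rise was 4.64 ± 0.48 at day 1 (adjusted p = 1.97e-05) and 3.01 ± 0.44 at day 3 (8.06-fold, adjusted p = 3.00e-04), and the level fell by 1.63 ± 0.38 on the log2 scale from day 1 to day 3 (adjusted p = 0.0134). Its ligand Tnfsf12 read 8.03 ± 0.71 CPM at day 0, 12.9 ± 5.96 CPM at day 1 and 7.58 ± 2.94 CPM at day 3, without a call at either day. At day 1 Tnfsf12 was 18.5 to 19.6 CPM in 3-digit and 6.03 to 11.6 CPM in 1-digit libraries (1.11 ± 0.32 on the log2 scale, adjusted p = 0.0168), opposite in direction to Tnfrsf12a. A RefSeq gene, Hcfc1r1, overlaps Tnfrsf12a, and counting without strand left 89.4 to 94.5% of its strand-specific reads.

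The subunits of NF-kB moved to different degrees. Nfkb1, which encodes the p105 precursor of p50 (chromosome 3, 135584655 to 135691547, minus strand), read 30.03, 30.4, 33.6 and 36.3 CPM at day 0. It read 47.6, 55.8, 48.5, 55.7 and 50.4 CPM at day 1 and 39.4, 51.8, 45.5, 35.9 and 46.7 CPM at day 3. The rise at day 1 was small and without overlap, at 0.66 ± 0.13 on the log2 scale (adjusted p = 0.0011). At day 3 the groups overlapped by 1 library, with a log2 difference of 0.43 ± 0.12 (adjusted p = 0.0172), and the call was lost without day 0 replicate 1 or replicate 2, with adjusted p up to 0.0598. An annotated gene model, Gm43430, lies inside Nfkb1 on the same strand.

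Relb, the partner of p52 in the noncanonical pathway (chromosome 7, 19606217 to 19629438, minus strand), read 4.08, 4.12, 4.23 and 5.75 CPM at day 0. The 5 libraries of day 1 held 21.9, 24.4, 32.8, 43.4 and 27.1 CPM and those of day 3 held 14.9, 13.6, 12.2, 9.08 and 25.0 CPM. Both injured groups lay wholly above day 0. Relb rose by 2.72 ± 0.30 on the log2 scale at day 1 (6.575-fold, adjusted p = 2.70e-05) and by 1.72 ± 0.29 at day 3 (adjusted p = 7.11e-04). From day 1 to day 3 it fell by 1.00 ± 0.25 (adjusted p = 0.0183), although day 3 replicate 5 overlapped the day 1 libraries and the call was lost without day 1 replicate 4 (adjusted p = 0.0534).

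The inhibitors of NF-kB and the nuclear IkB gene Nfkbiz were read next. Nfkbia, which encodes IkBα and holds NF-kB in the cytoplasm (chromosome 12, 55489410 to 55492647, minus strand), read 43.0, 39.1, 58.6 and 44.8 CPM at day 0. At day 1 it read 75.2 and 69.4 CPM in replicates 1 and 2 and 175, 173 and 175 CPM in replicates 3, 4 and 5. At day 3 it read 124, 54.3, 52.9, 74.9 and 98.3 CPM. The 3-digit libraries of day 1 were nearest to day 0 and the 1-digit libraries far above it, and day 3 overlapped day 0. The log2 difference from day 0 was 1.52 ± 0.34 at day 1 (adjusted p = 0.00299) and 0.80 ± 0.33 at day 3 (adjusted p = 0.0722). Against the same 1-digit day 0 libraries, the day 1 difference was 1.91 ± 0.26 for 1-digit libraries (adjusted p = 4.65e-05) and 0.64 ± 0.28 for 3-digit libraries (adjusted p = 0.0857). The missing call at day 3 depends on the fit: the adjusted p was 0.0243 with total counts in place of TMM, 0.0384 with only the 2 days in the fit, 0.00681 with number format as a term, 8.95e-04 with 1-digit libraries alone, 0.0162 and 0.0403 for the 1-digit and 3-digit libraries of day 3 in the fit by day and format, and 0.046 and 0.0423 without day 1 replicate 2 or day 3 replicate 2. The column counted without strand held 83.5 to 86.7% of the strand-specific reads of Nfkbia.

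Tnfaip3, which encodes the ubiquitin-editing enzyme A20 (chromosome 10, 19000910 to 19015657, minus strand), read 5.98, 5.77, 5.62 and 7.32 CPM at day 0. At day 1 it read 18.5 and 16.6 CPM in replicates 1 and 2 and 45.5, 36.5 and 38.8 CPM in replicates 3, 4 and 5. The day 3 values were 21.8, 15.0, 13.1, 9.15 and 24.0 CPM. Every injured library was above day 0, and the split by number format at day 1 was the same as that of Nfkbia. Tnfaip3 rose by 2.33 ± 0.35 on the log2 scale at day 1 (5.04-fold, adjusted p = 2.24e-04) and by 1.43 ± 0.34 at day 3 (adjusted p = 0.0058). Set against the day 0 libraries, its day 1 rise was 2.70 ± 0.27 in 1-digit libraries (adjusted p = 5.33e-06) and 1.51 ± 0.29 in 3-digit libraries (adjusted p = 0.00146).

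Nfkbiz encodes IkBζ, a nuclear IkB protein that is itself induced by NF-kB and needed for a second set of targets such as Il6 and Lcn2 (chromosome 16, 55811375 to 55838899, minus strand). It read 5.47, 9.77, 7.52 and 8.04 CPM at day 0. At day 1 it read 39.0, 35.9, 55.3, 47.5 and 66.8 CPM and at day 3 33.9, 20.7, 29.1, 26.2 and 31.5 CPM. The 3 days did not overlap at all, with day 3 between day 0 and day 1. Nfkbiz rose by 2.67 ± 0.23 at day 1 (6.34-fold, adjusted p = 4.88e-06, the smallest adjusted p of the group) and by 1.88 ± 0.22 at day 3 (adjusted p = 7.37e-05), and fell by 0.79 ± 0.20 from day 1 to day 3 (adjusted p = 0.0173), all on the log2 scale.

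Birc3, or cIAP2, a ubiquitin ligase of the TNF receptor complex that protects against cell death (chromosome 9, 7848699 to 7873186, minus strand), read 6.73, 9.003, 6.63 and 6.77 CPM at day 0. It read 32.3, 34.7, 30.9, 46.0 and 43.4 CPM at day 1 and 29.4, 15.5, 21.8, 21.7 and 45.9 CPM at day 3. No injured library reached down to day 0. The log2 rise was 2.36 ± 0.28 at day 1 (5.13-fold, adjusted p = 4.35e-05) and 1.88 ± 0.27 at day 3 (adjusted p = 2.79e-04), and day 3 did not differ from day 1 by the test (-0.48 ± 0.24).

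At day 3, 9 of the 10 genes were still higher than at day 0, Nfkbia being the gene without a call. Without Tnf this is 8 of the other 9, and 7 of the other 9 showed no overlap with day 0. Over all genes tested 33.3% were called, 19.5% were called higher, and 16.9% lay wholly above day 0. The comparisons of day 1 and of day 3 with day 0 share the day 0 libraries and are not independent. The log2 difference at day 3 was smaller than that at day 1 in all of these genes except Tnf, with a median at day 3 of 1.72 over the 9 genes other than Tnf and 0.05 over all genes tested.

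**Figure D2:**
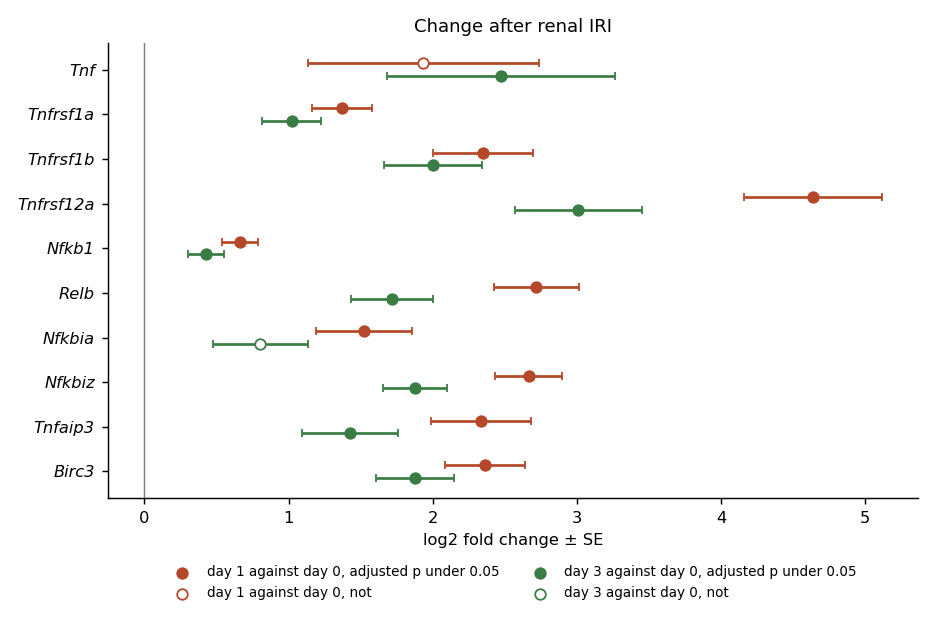
Log2 fold change against day 0 of each of the 10 genes at day 1 and at day 3, with the standard error, filled where the adjusted p was under 0.05 and open where it was not. Tnfrsf12a stands at 4.64 and 3.01, Nfkb1 at 0.66 and 0.43, and Tnf alone has the larger value at day 3 (2.48 against 1.94).

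Day 3 was then compared with day 1 directly. Tnfrsf12a, Nfkbiz and Relb were lower at day 3, which is 3 of the 10 genes, where 15.9% of all genes tested were called and 7.39% were called lower. Only Nfkbiz was without overlap, as were 3.47% of all genes in that direction. Tnfaip3 and Nfkbia differed by -0.91 ± 0.30 and -0.72 ± 0.31 without a call (adjusted p = 0.0543 and 0.12), and Tnf by 0.54 ± 0.64 (adjusted p = 0.593). Tnfaip3 was called under 3 of 12 alternatives and Nfkbia under 1 of 12. The count depended on single libraries. Without day 1 replicate 2 it was 5 (23.5% of all genes called), with Tnfaip3 and Nfkbia added, and without day 3 replicate 5 it was 6 (21.7%), with Tnfaip3, Tnfrsf1a and Birc3 added. Within 1-digit libraries the count was 5, where 36% of all genes were called, and Nfkbia fell by 1.02 (adjusted p = 0.00208) and Tnfaip3 by 1.30 (adjusted p = 0.0105) on the log2 scale. Within 3-digit libraries (16% of all genes called) it was 3, namely Tnfrsf12a, Relb and Tnfrsf1a, and Nfkbia differed by 0.09 (adjusted p = 0.876). In the same comparison over all libraries, 10 of 10 immediate early genes were lower at day 3 (median -1.96), 1 of 5 tubular injury, 2 of 6 other nephron and 1 of 5 smooth muscle markers were lower, and 2 of 5 fibroblast and pericyte, 2 of 10 macrophage and monocyte and 1 of 7 proximal tubule markers were higher. Their part in the falls of Tnfrsf12a, Nfkbiz and Relb was not tested.

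The day comparisons were repeated for the 1-digit libraries in the fit by day and format, which all libraries enter. There, 9 of the 10 genes were higher at day 1 (28.9% of all genes tested were called higher) and 9 at day 3 (28.6%). The genes without a call were Tnf at day 1 and Nfkb1 at day 3 (edgeR adjusted p = 0.0659 and 0.0674). These missing calls depended on the fit: Tnf was called under 1 of 6 alternatives and Nfkb1 under 1 of 8. Against the same 1-digit day 0 libraries, 3-digit libraries, whose format cannot be told apart from injury, gave 8 at day 1 (22.6%), where Tnf and Nfkbia had no call, and 10 at day 3 (19.1%). Without Tnf, these counts were 9 and 8 of the other 9 in 1-digit libraries at day 1 and day 3, and 8 and 9 of the other 9 in 3-digit libraries. The 1-digit count at day 3 rests on 2 libraries and was 6 of the 10 without day 3 replicate 5 (36.5% of all genes called), where none of these passed the test: Tnf differed by 0.44, Tnfaip3 by 0.59 (adjusted p = 0.0956), Nfkbia by 0.72 (adjusted p = 0.137) and Nfkb1 by 0.17 (adjusted p = 0.474). Leaving out each of the other libraries gave 8 to 10.

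Libraries of the same day were next compared by number format. At day 1, Nfkbia, Tnfaip3 and Tnfrsf12a were lower in the 3-digit libraries, which is 3 of the 10 genes, where 35% of all genes tested were called and 16.4% were called lower. The log2 differences were -1.27 ± 0.32 for Nfkbia (adjusted p = 0.00846), -1.20 ± 0.32 for Tnfaip3 (adjusted p = 0.0123) and -1.01 ± 0.30 for Tnfrsf12a (adjusted p = 0.0204). These calls rest on 2 libraries against 3. Without day 1 replicate 1 or 2 only 1 library of 3 digits is left, so the calls cannot be checked by leaving either out. Over all fits without 1 library, the difference ran from -1.34 to -1.21 for Nfkbia, -1.29 to -1.1 for Tnfaip3 and -1.31 to -0.76 for Tnfrsf12a. The 3-digit libraries lay wholly below the 1-digit libraries in 5 of the 10 genes, these and Nfkbiz and Relb, as did 29.4% of all genes tested. Nfkbiz differed by -0.59 ± 0.24 (adjusted p = 0.0681) and Relb by -0.57 ± 0.32 (adjusted p = 0.184). Tnfrsf1a lay the other way, above the 1-digit libraries (as did 31.2% of all genes tested) by 0.29 ± 0.22 without a call (adjusted p = 0.321).

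The same split of day 1 ran through other markers. For comparison, 2656 of the 14300 genes tested were called higher and 2345 lower in the 3-digit libraries. All 10 of 10 immediate early genes were lower in the 3-digit libraries, where their sum was 514 to 730 CPM. It was 2412 to 4155 CPM in the other day 1 libraries and 198 to 241 CPM at day 0. Summed macrophage and monocyte markers (1 of 10 called higher, 0 lower) lay the other way, at 326 to 347 CPM against 136 to 206 CPM where the number has 1 digit. Summed tubular injury markers (1 of 5 called higher, 0 lower) did so as well, at 5235 to 5579 against 899 to 2857 CPM. Proximal tubule markers (3 of 7 called lower, 0 higher) summed to 2962 to 3402 against 7639 to 12110 CPM. Fibroblast and pericyte markers (2 of 5 called higher) summed to 270 to 341 against 122 to 165 CPM, and urothelium markers (3 of 6 called higher) to 13.4 to 95.1 against 4.84 to 7.64 CPM. Of 5 smooth muscle markers 4 were called higher, although their sum, 204.5 to 204.8 CPM, was below the 209.9 to 251 CPM of the other libraries. The sums of neutrophil (0 of 6 called), endothelial (2 of 6 higher, 1 lower) and other nephron markers (1 of 6 higher, 2 lower) overlapped between the formats. Lymphocyte markers summed to 0.701 to 1.14 against 1.94 to 2.82 CPM. The part of any of these lists in the differences of Nfkbia, Tnfaip3 and Tnfrsf12a was not tested.

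At day 3, 1 of the 10 genes differed by format, where 18.5% of all genes tested were called and 8.22% were called lower. Tnfrsf12a was lower in the 3-digit libraries by a log2 difference of -1.41 ± 0.29 (adjusted p = 0.00917), and lay wholly below the 1-digit libraries, as did 20% of all genes. Without day 3 replicate 5 the Tnfrsf12a difference was -0.84, but this leaves 1 library of 1 digit at day 3, and the spread comes from the other groups. Without day 3 replicate 1 the count was 3 (33.5% of all genes called), Tnfrsf1a being added. Nfkbia and Tnfaip3 read -0.17 ± 0.30 and 0.01 ± 0.32. Markers separated by format at day 3 as well. Among the 14300 genes tested, 1470 were called higher and 1175 lower in the 3-digit libraries. In 3-digit against 1-digit libraries, proximal tubule markers (3 of 7 higher) summed to 5460 to 11160 against 2028 to 3753 CPM and macrophage and monocyte markers (5 of 10 higher, 1 lower) to 311 to 502 against 198 to 235 CPM. Endothelial markers (3 of 6 lower) summed to 137 to 235 against 329 to 546 CPM and tubular injury markers (1 of 5 lower) to 970 to 2426 against 3426 to 4560 CPM. Smooth muscle markers (1 of 5 lower) also separated, at 107 to 150.4 against 151.1 to 194 CPM. The sums of immediate early (2 of 10 lower), fibroblast and pericyte (2 of 5 lower), other nephron (1 of 6 higher) and neutrophil markers overlapped between the formats. Their part in the Tnfrsf12a difference was not tested.

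Whether the format difference itself changed between the days was tested as an interaction. The edgeR quasi-likelihood test called 0 of the 10 genes, against 17.6% of all genes tested, while 3 of the 10 had an unadjusted p under 0.05. These were Tnfaip3 at 1.21 ± 0.45 (adjusted p = 0.0786), Nfkbia at 1.10 ± 0.44 (adjusted p = 0.0963) and Tnfrsf1a at -0.81 ± 0.31 (adjusted p = 0.0901), on the log2 scale as day 3 minus day 1. DESeq2 called 1 gene, Tnfaip3, with a value of 1.25 (adjusted p = 0.036), where it called 22.5% of all genes. The edgeR count was 1 without day 3 replicate 1 (Tnfrsf1a, 22.1% of all genes called) or without replicate 3 (Nfkbia, 17.6%). Without replicate 5, which leaves 1 library of 1 digit at day 3, the Tnfaip3 value was 2.05.

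**Figure D3:**
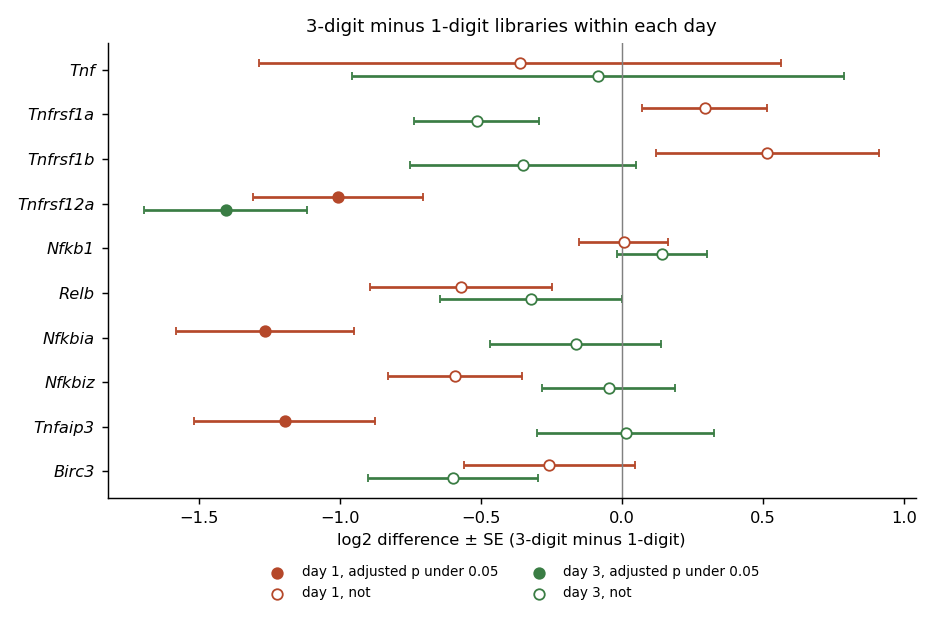
Log2 difference between 3-digit and 1-digit libraries of the same day for each of the 10 genes, at day 1 (2 against 3 libraries) and at day 3 (3 against 2 libraries), with the standard error. Nfkbia, Tnfaip3 and Tnfrsf12a sit at -1.27, -1.20 and -1.01 at day 1, and only Tnfrsf12a, at -1.41, is far below 0 at day 3.

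Levels of different genes were compared per length, as CPM per kilobase of annotated exons (RPKM). At day 0 the order was led by Nfkbia at 28.8 ± 5.28 RPKM (SD, n = 4), Tnfrsf1a at 18.6 ± 0.636 and Tnfrsf12a at 13.3 ± 2.04, followed by Nfkb1 at 2.70 ± 0.244. Nfkbiz, Birc3, Relb, Tnfrsf1b and Tnfaip3 lay between 1.53 and 0.854 RPKM with ranges that overlap between neighbors, and Tnf was last at 0.0909 ± 0.111 RPKM. After injury Tnfrsf12a was first, at 332 ± 130 RPKM at day 1 and 108 ± 72.2 RPKM at day 3 (SD, n = 5). Nfkbia (82.8 ± 34.6 RPKM) and Tnfrsf1a (48.1 ± 7.94 RPKM) were next at day 1, with overlapping libraries. The inhibitor Tnfaip3 remained low on this scale, at 4.32 ± 1.78 RPKM at day 1 and 2.30 ± 0.851 RPKM at day 3. Tnf stayed last at both days, at 0.368 ± 0.26 and 0.53 ± 0.325 RPKM.

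Other genes of the pathway were counted in 7 lists drawn from general knowledge, to be read against the 23.3% and 19.5% of all genes tested that were higher at day 1 and day 3. Some passed the filter on low counts through the injured libraries, as Tnf did, so counts are also given for the genes that pass it in the day 0 libraries alone. Among 8 further NF-kB subunits and IkB proteins, 6 were higher at day 1 and 0 were lower, with a median log2 fold change of 1.23 (5 of the 6 that pass at day 0). They were led by Rela, the p65 subunit, which read 36.2 ± 2.41 CPM at day 0 and 155 ± 78.2 CPM at day 1 (2.09 ± 0.39, adjusted p = 9.67e-04). Bcl3 (1.99), Nfkb2, the p100 precursor (1.35), and Nfkbib, which encodes IkBβ (1.00), also rose. At day 3 edgeR and DESeq2 each called 0 of these 8, with a median of 0.62 and 3 of the 8 at an unadjusted p under 0.05. The count was 2 with total counts in place of TMM and 4 for the 1-digit libraries of day 3 in the fit by day and format. Against day 1 Bcl3, Rela and Nfkbib were lower, by -1.51, -1.45 and -0.72.

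Of 8 tested negative regulators outside the group, 7 rose at day 1 and 3 at day 3, with medians of 1.64 and 1.10 (6 and 2 of the 7 that pass at day 0). Ier3 (3.10 ± 0.49), the RNase gene Zc3h12a (2.44 ± 0.49) and the mRNA-decay gene Zfp36 (1.91 ± 0.49) had the largest changes at day 1, and these and Tnip1 were lower at day 3 than at day 1. Zfp36, Ier3 and Zc3h12a were also lower in the 3-digit libraries of day 1, by -1.999, -1.95 and -1.87, as was Rela by -1.50, whereas Nfkb2 was higher there by 1.02.

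The 20 tested classical NF-kB targets had a median of 2.92 at day 1 and 1.81 at day 3, with 18 higher and 1 lower at day 1 and 13 higher and 1 lower at day 3. The filter at day 0 is passed by 10 of them. Among these 10, day 1 had 8 rises and 1 fall and day 3 had 6 rises and 1 fall, with medians of 2.05 and 1.16. The gene that fell was Sod2, the mitochondrial superoxide dismutase, by 0.77 and 1.05. The chemokine Cxcl1 read 1.28 ± 0.453 CPM at day 0, 207 ± 155 CPM at day 1 and 27.4 ± 18.0 CPM at day 3. Lif, a cytokine of the IL-6 family, read 0.342 ± 0.13, 27.3 ± 9.62 and 7.05 ± 3.83 CPM. With Il6 at its bound the medians over the 20 were the same. Il6 had 0 reads in all 4 day 0 libraries, and against the 3 reads per library that a count of 0 allows it was at least 35.2-fold higher at day 1. Cxcl2 and Cxcl1 were lower in the 3-digit libraries of day 1 by -5.51 and -2.97, among 7 lower and 1 higher of the 20.

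Receptor adaptors, kinases, receptors and ligands were counted last. Of 20 receptor adaptors, 2 rose at day 1, the deubiquitinase gene Otulin (1.05) and Traf2 (0.52), and the median was 0.19, and at day 3 the 2 that rose were Traf1 (1.31) and Birc2 (0.36). With total counts in place of TMM 6 of the 20 rose at day 3, and DESeq2 called 4 at day 1. For the 1-digit libraries in the fit by day and format, which all libraries enter, 5 of the 20 were higher and 4 lower at day 1. At day 3 these were 7 higher and 1 lower. Of all genes tested, 28.9% were higher and 29.6% lower there at day 1, and 28.6% and 25.1% at day 3, which is also the background for the other 1-digit counts of these lists. Of 6 IKK kinases, Map3k14, which encodes NIK, (0.95) and Ikbkb (0.27) rose at day 1 and Ikbke (1.28) at day 3. In the 1-digit libraries of the fit by day and format 3 and 2 of them rose. Of 12 other TNF receptors tested, with medians of 0.86 and 0.77, 7 rose and 1 fell at day 1, and 4 rose at day 3. In the 1-digit libraries of the fit by day and format, 7 were higher and 3 lower at day 1, and 6 higher and 1 lower at day 3. Over all libraries, Tnfrsf10b, a death receptor, rose by 1.79 and 1.22 and Eda2r by 1.86 and 2.26. Eda2r, with 6 to 24 reads at day 0, passed the filter through the injured libraries. Of the 7 receptors that pass at day 0, 4 rose at day 1 and 2 at day 3. Of 8 other ligands tested out of 14, 3 rose and 1 fell at day 1, but only 3 pass at day 0, of which 1 rose and 1 fell. The gene that fell was Tnfsf10, which encodes TRAIL, from 58.6 ± 3.78 CPM to 15.4 ± 6.85 CPM (-1.93 ± 0.38) with 27.0 ± 15.1 CPM at day 3, while Tnfsf13b, which encodes BAFF, rose by 1.56 at day 1 and 2.38 at day 3. Tnfsf13b, with 0 to 12 reads at day 0, passed the filter through the injured libraries as well. Tnfsf18 had 0 reads at day 0 and 5 to 33 reads per library at day 1, and with it at its bound the ligand median was 0.49. At day 3 it was at or under 3 reads, and the ligand median was 0.23 with its fitted value and -0.09 without it.

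**Figure D4:**
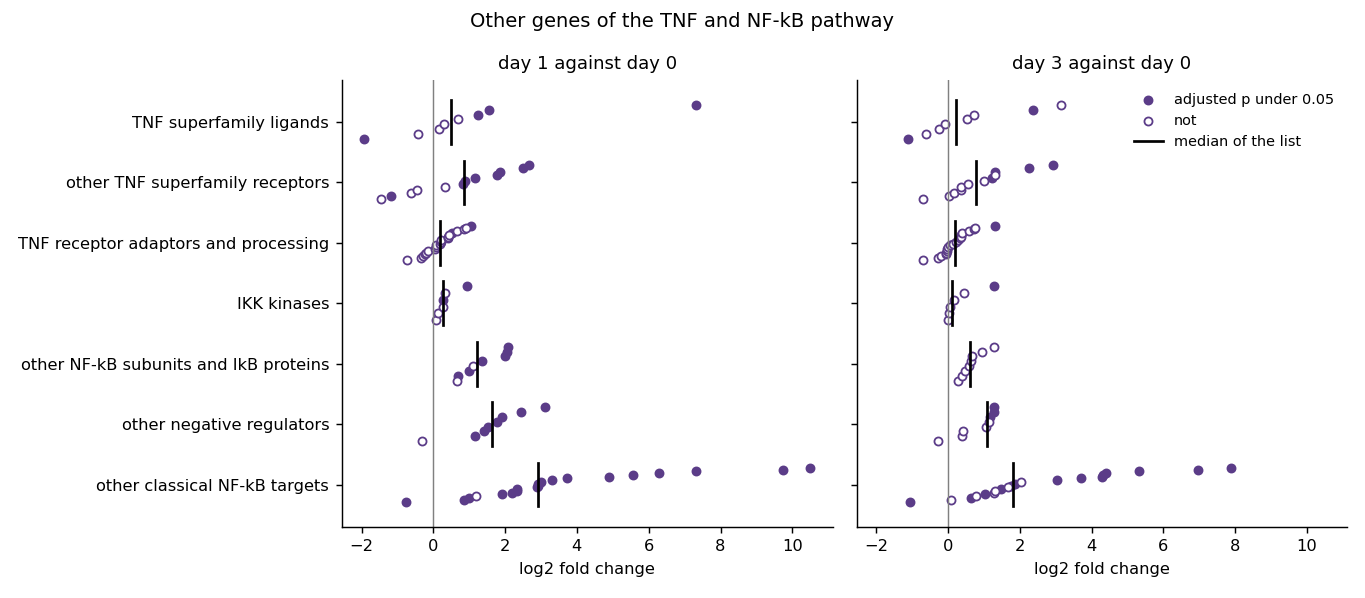
Log2 fold change against day 0 of each tested gene of the 7 lists, at day 1 and at day 3, filled where the adjusted p was under 0.05 and open where it was not, with a line at the median of each list. The classical NF-kB targets reach farthest to the right, with medians of 2.92 and 1.81, and the receptor adaptors stay near 0, with a median of 0.19 at day 1; the points of Tnfsf18 and Il6, with 0 reads at day 0, are fitted values that depend on the prior count, and the ligand median at day 3 is -0.09 without Tnfsf18.

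Finally, the genes whose pattern over the 14 libraries was most like that of each gene were taken by Pearson r of log2 CPM. The values describe these libraries, which share day, number format and scaling, and carry no test. Tnfaip3 was most like Cxcl1 (r = 0.984), Nfkbia like Tmem11 (0.961) and the immediate early gene Ier2 (0.96), and Nfkbiz like Socs3 (0.987) and Osmr (0.982). Tnfrsf12a was most like Gprc5a (0.992), Birc3 like Clic1 (0.993), Tnfrsf1a like Plin2 (0.99) and Relb like Fosl1 (0.979). Tnfrsf1b was closest to Ddx39 (0.977), with the monocyte marker Cd14 second (0.971), and Nfkb1 was closest to Itga3 (0.967). Tnf had the weakest neighbors, Wfdc17 (0.903), Fes (0.902) and the phagocyte oxidase gene Ncf4 (0.888). Between the 10 genes themselves r ran from 0.404 for Tnf with Nfkbia to 0.964 for Tnfrsf12a with Relb.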

How the data were processed

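Bulk RNA sequencing of 14 mouse kidney libraries (TRIzol RNA, Illumina TruSeq) was analysed. The authors deposited, per library, raw read counts per gene in 3 strand columns, made per the submitters' processing notes with Trimmomatic, STAR and mm10; versions, annotation and any test were not given in the sources used here. Column 4 was used, since 98.5 to 98.75% of the stranded reads fell there. Reads in the 4 summary entries of unmapped, multimapped, unassigned or ambiguous reads (28.99 to 38.34% of each library) were left out. Genes were filtered by filterByExpr, scaled by TMM and tested with the edgeR quasi-likelihood F test (edgeR 4.0.16, limma 3.58.1, R 4.3.3), with Benjamini-Hochberg adjustment over 14300 genes and a threshold of 0.05. All libraries entered each fit, with 1 term per day or per day and number format. Each SE was derived from F. List counts were repeated over genes that pass filterByExpr in the day 0 libraries alone. Settings were checked on simulated data. The genes and lists were chosen with earlier results of these data known. Named pathway genes were up to 4 called genes of largest change per list and comparison, plus any needed to say what a list did. Neighbors were the 3 genes of highest r of log2 CPM (prior count 2). Gene positions and exon lengths came from GENCODE M21 and promoters from RefSeq. Alternatives were the unstranded column, other scalings, filters and tests (DESeq2 1.42.0), a replicate block, number format as a term, either format alone and leaving out each library. In 26 pairs of libraries of the same day, chi-square per degree of freedom was 5.95 or more, so no pair differed by counting noise alone. Separate preparations of 1 kidney could also differ this much, so the value does not show that the libraries came from separate animals.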

Additional observations from a re-analysis of the deposited data

Results flagged for a closer look

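Of 30 groups of libraries tested for a library that stands apart (10 genes on 3 days), 2 had one, by the gap to its nearest neighbor as a share of the group's range. Chance gives about 1 in 20 such groups. Relb at day 0 read 5.745 CPM in replicate 4 and 4.084 to 4.232 CPM in the other libraries. Birc3 at day 0 read 9.003 CPM in replicate 2 and 6.633 to 6.773 CPM in the others. Both are in control libraries and below every injured library.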

How the results depend on the processing

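All 9 calls of day 1 against day 0 other than Tnf kept their direction under every alternative, and each kept its call except Nfkbia with 3-digit libraries alone (adjusted p = 0.131), and Nfkbia, Tnfrsf1a and Nfkb1 when tested against an absolute log2 fold change of 1. That stricter test gave 5 of the 10 genes at day 3, 0 at day 3 against day 1, 0 and 0 by format at day 1 and day 3, and 5 at day 3 in 1-digit libraries. With only the days compared in the fit, the format count at day 3 was 0, and in 1-digit libraries alone day 3 against day 1 gave 5. The interaction gave 1 with total counts without TMM and 1 with DESeq2, where 19.6% and 22.5% of all genes were called. Leaving out each library in turn gave 9 to 10 genes at day 1, 7 to 10 at day 3, 2 to 6 for day 3 against day 1, 0 to 4 by format at day 1, 0 to 4 at day 3, 0 to 1 for the interaction, and 9 to 10 and 6 to 10 in 1-digit libraries at day 1 and day 3. Some of these fits leave 1 library in a format group, where the spread comes from the other groups. Leaving out each library called 4759 to 6533 of all genes at day 1, 3338 to 5659 at day 3 and 1269 to 3350 between them. Over all genes, the stricter test called 848 in place of 6020 at day 1, 822 in place of 4757 at day 3, 6 in place of 2276 between them, and 272, 74 and 354 in place of 5001, 2645 and 2510 for the formats and their interaction. With only the days compared these were 831, 76 and 1243 for day 3 against day 1, the format at day 3 and the interaction, and with 1-digit libraries 8119 at day 3 and 5194 between the days. Leaving out single libraries moved the format count at day 3 over all genes between 91 and 4771 and that at day 1 between 1997 and 5602.

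Some directions turned. Nfkb1 by format at day 1 was -0.035 with RLE or DESeq2, and its interaction was -0.038 without TMM. Between day 3 and day 1, Tnfrsf1a and Tnfrsf1b were 0.048 and 0.069 in 1-digit libraries and Nfkbia 0.094 in 3-digit libraries. Leaving out single libraries, the format difference at day 1 ran from -1.252 to 0.445 for Tnf and -0.112 to 0.102 for Nfkb1. At day 3 it ran from -0.93 to 2.01 for Tnf, -0.525 to 0.843 for Tnfaip3, -0.713 to 0.082 for Tnfrsf1b, -0.692 to 0.05 for Nfkbia, -0.211 to 0.126 for Nfkbiz, -0.038 to 0.321 for Nfkb1, -0.879 to 0.561 for Relb and -1.046 to 0.021 for Birc3. The interaction ran from -0.571 to 2.377 for Tnf, -0.818 to 0.174 for Tnfrsf12a, -0.044 to 0.323 for Nfkb1, -0.308 to 1.14 for Relb and -0.787 to 0.286 for Birc3. The cause was not tested.

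Total counts without TMM moved the median of all genes by 0.139 at day 3, 0.154 for day 3 against day 1, 0.213 for the format at day 1 and -0.168 for the interaction. The higher and lower calls became 3625 and 1286 in place of 2783 and 1974, 1721 and 487 in place of 1219 and 1057, 3909 and 1439 in place of 2656 and 2345, and 979 and 1819 in place of 1302 and 1208. Nfkbia at day 3, not called, was called under 4 of 12 alternatives and 2 of 14 fits that left out a library. With the replicate number as a block, 9, 9 and 3 of the 10 genes were called, as without it. These counts are for day 1, day 3 and day 3 against day 1, where 36.1%, 28.7% and 14.3% of all genes were called. Of 13 same-number pairs 4 had a correlation of deviations above 0.1 (-0.175 to 0.261), so the numbers were not taken as pairs. Tnf rests on at most 23 reads per library.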
